A study of Mus musculus with 30 samples.

Results

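Gene expression was compared between livers of newborn mice that lack estrogen-related receptor gamma (ERRγ, encoded by Esrrg) and livers of wild-type newborns. Of the 30 arrays of the series, 3 were titled knockout liver and 3 wildtype liver, and these 6 make up the comparison. The other 24 arrays, 3 per genotype from each of brain, kidney, stomach and salivary tissue, served only to set the liver difference beside that of other tissues. Null and wild-type mice shared a mixed SV129/C57BL/6 background and a neonatal age, had no treatment, and were of unknown sex by the labels. No source used here gives the hours since birth, the state of feeding at collection, the design of the null allele or whether each array came from a separate animal, so p-values measure the spread between arrays, which may be in part technical.

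Total RNA was hybridized to Affymetrix MOE430A arrays, on which 1 or more sets of short probes read each transcript. All 22626 probe sets that are not array controls were compared, and the 13577 whose mean over the 6 liver arrays reached the 40th percentile, a log2 signal of 5.245, were tested. Levels below are log2 signals, so that a difference of 1 is a 2-fold change. A probe set was called at an adjusted p under 0.05 by limma, with Benjamini-Hochberg adjustment over all tested probe sets. Genes that mark liver were high on every liver array: serum albumin Alb read 12.83 to 13.21 on the liver arrays and at most 11.90 elsewhere, and the urea cycle enzyme Cps1 read 11.89 to 12.82 on the liver arrays and at most 7.72 elsewhere. Xist, the transcript of the inactive X chromosome, read 6.34 on null replicate 1, against 6.90 on wild-type replicate 3, and 10.68 or more on the other 4 liver arrays, so each genotype held 1 low array. The same replicate numbers were low in Xist in all 5 tissues.

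ERRγ is an orphan nuclear receptor, active without a known natural ligand, that binds single extended half-sites in DNA and recruits the PGC-1 coactivators to genes of mitochondrial respiration and fatty acid oxidation. In the adult liver it is known to be induced by fasting and glucagon and to raise genes of glucose production. At birth the supply of maternal glucose ends, and the newborn liver makes glucose and oxidizes the fat of milk, under glucagon, low insulin and glucocorticoids. The newborn liver also still holds blood-forming cells.

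The null livers differed from the wild-type livers in 941 of 13577 tested probe sets, of which 471 were higher and 470 lower. This is 6.93% of the probe sets tested, and 3093 of the 13577 lay at an unadjusted p under 0.05. Large rises included those of the stress gene Gadd45b and of the enzymes Upp2 and Got1. Large falls included those of the enzymes Akr1c6, Cyp1a2 and Car3. Rises of 4-fold or more numbered 44 and falls of 4-fold or more 42, while 228 rises and 251 falls reached 2-fold. The called probe sets named 355 genes that were higher and 367 that were lower, with Serf1 in both, and 77 called probe sets had no single gene symbol. Where a gene with a called probe set had further tested probe sets, all of them differed in 1 direction in 302 of 351 genes. By 1 probe set per gene, the brightest in liver, 3.3% of 8458 genes were higher and 3.76% lower, and the median difference over all of them was 0.02. The lists of genes below are read against these shares. Lists and members were chosen with earlier results of these data known, so their shares describe the lists and do not test them.

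The null arrays did not stand equally far from the wild-type arrays. Over the 941 called probe sets, the median distance from the wild-type mean was 1.19 for null replicate 1, 0.73 for null replicate 2 and 1.07 for null replicate 3, and null replicate 2 lay nearest to that mean in 711 of them. Without null replicate 2 the test called 1796 probe sets, and without any other single array 196 (without wild-type replicate 3) to 328 (without wild-type replicate 1). Each of the 941 calls that could be tested without an array kept its direction, which leaving out 1 array cannot turn where the groups do not overlap. RNA integrity, read as the difference between the 3′ and 5′ control probe sets of Gapdh, was 4.06 ± 0.13 on null arrays and 4.51 ± 0.28 on wild-type arrays (SD, n = 3 each), without overlap (exact two-sided permutation p = 0.1, the smallest that 3 against 3 arrays allow). With this difference as a covariate limma called 0 probe sets, against 1846 at an unadjusted p under 0.05, and all 941 kept their direction. The difference with the covariate was 4.78 for Plk3, 4.47 for Gadd45b, -4.39 for Akr1c6 and -3.80 for Car3, against 5.0, 4.66, -4.64 and -4.21 without it, while that of 1 Upp2 probe set was 1.80, against 4.25. Genotype and this difference part the 6 arrays in the same way and cannot be told apart in that fit. That of Actb was 2.65 ± 0.41 on null arrays and 2.52 ± 0.12 on wild-type arrays (exact permutation p = 0.9).

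**Figure D1:**
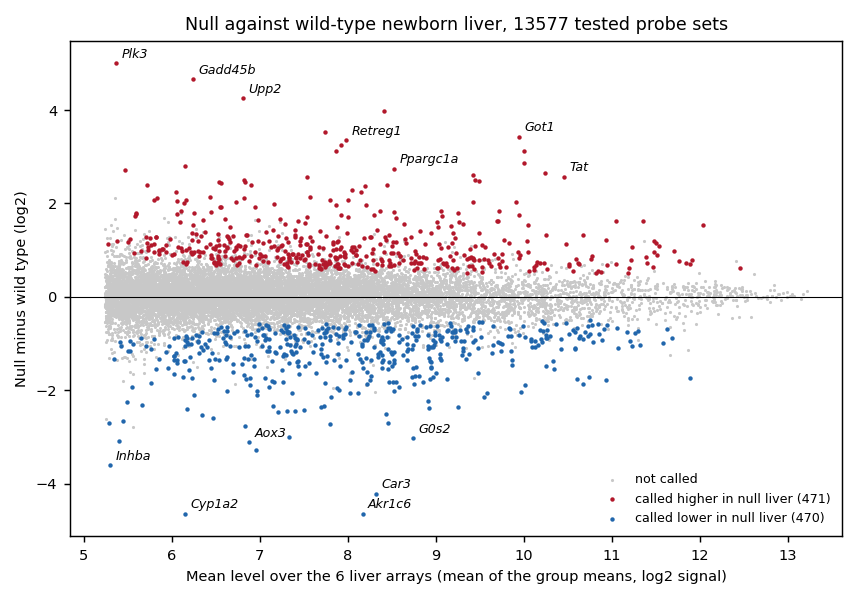
Difference between null and wild-type liver (vertical axis, log2) against the mean level over the 6 liver arrays (horizontal axis, log2 signal) for 13577 tested probe sets. Red points are the 471 probe sets called higher and blue points the 470 called lower in null liver, and both reach across the range of levels.

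The targeted gene itself gave no check of the labels. The 1 Esrrg probe set read 6.45, 6.19 and 6.76 on null arrays and 6.64, 6.33 and 6.50 on wild-type arrays. The groups overlapped, with a difference of -0.02 ± 0.20 (SE, adjusted p = 0.96). No source used here places this probe set inside or outside the deletion. Among 31 tested genes of ERR receptors, PGC-1 coactivators and partner receptors, 11 rose and 0 fell (limma, 1 at an unadjusted p under 0.05 and lower), with a median difference of 0.26.

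Ppargc1a, which encodes the fasting-induced coactivator PGC-1α, read 10.19, 9.26 and 10.25 on null arrays and 7.21, 7.45 and 6.82 on wild-type arrays. All null arrays stood above all wild-type arrays, with null replicate 2 the lowest of them. The rise was 6.68-fold, a log2 difference of 2.74 ± 0.27 (SE, adjusted p = 0.00193), and the other 4 tested probe sets of the gene rose as well. Its paralog Ppargc1b rose by 1.98 ± 0.30 (SE). Esrra, the receptor ERRα and a known target of the same coactivators, read 6.60, 6.54 and 6.86 on null arrays and 5.55, 5.79 and 5.63 on wild-type arrays, a rise of 1.01 ± 0.18 (SE, adjusted p = 0.0157) without overlap. Smaller rises were found for Hnf4a (0.72, adjusted p = 0.0222), the master regulator of hepatocyte genes, and for Ppara (0.71, adjusted p = 0.0426), the receptor for fatty acids. Of the other 3 tested probe sets of Hnf4a 1 was called higher (1.07), and the other two, which were dimmer, differed by 0.43 and -0.03 and were not called. The transcription factors Foxo3 (1.21), Cebpb (1.99), Cebpd (1.82) and Nr5a2 (1.09) rose too. The count of this list was lowest, at 5, without wild-type replicate 3, and highest, at 12, without null replicate 2.

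Promoter sequence was set beside these calls because an ERR binds the element TNAAGGTCA and because Ppargc1a and genes of glucose production are known to respond to glucagon through the cAMP response element TGACGTCA. Windows from 250 bases before to 50 bases after the gene start, from RefSeq on GRCm38.p6, were searched on both strands for exact matches. Each motif was counted on its own, whatever its overlap with the other. The ERR element was present in 2 of 233 genes called higher (0.858%) and in 4 of 262 called lower (1.53%), against 68 of 6890 tested genes (0.987%) and 1.28% of all windows in the table. The cAMP response element was present in 12 of 233 genes called higher (5.15%) and in 4 of 262 called lower (1.53%), against 227 of 6890 tested genes (3.29%) and 1.79% of all windows. These shares are descriptions and a match is not evidence of binding. Of the 104 named called genes with a window, 2 had the ERR element, Alas2 and Hmgcs1, and 4 had the cAMP response element. These 4 were Retreg1 and Peg3, which rose, and Ndufb2 and Mrpl49, which fell, and Retreg1 had the largest change. Ppargc1a, Pck1, G6pc and Tat were not among them.

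The windows of Retreg1, Alas2 and Hmgcs1 are printed because they hold a motif and belong to genes that moved, Retreg1 and Alas2 up and Hmgcs1 down. Capitals mark the match, which lies on the opposite strand in Hmgcs1. All 3 genes lie on the plus strand, and the windows are chr15:25843048-25843347 for Retreg1, chrX:150547167-150547466 for Alas2 and chr13:119690101-119690400 for Hmgcs1.
Retreg1: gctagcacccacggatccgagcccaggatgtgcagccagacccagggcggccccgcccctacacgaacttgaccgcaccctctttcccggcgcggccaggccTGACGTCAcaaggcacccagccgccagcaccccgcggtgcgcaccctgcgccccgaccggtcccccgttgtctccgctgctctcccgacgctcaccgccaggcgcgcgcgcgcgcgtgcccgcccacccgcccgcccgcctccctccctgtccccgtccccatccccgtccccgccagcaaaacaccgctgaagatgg
Alas2: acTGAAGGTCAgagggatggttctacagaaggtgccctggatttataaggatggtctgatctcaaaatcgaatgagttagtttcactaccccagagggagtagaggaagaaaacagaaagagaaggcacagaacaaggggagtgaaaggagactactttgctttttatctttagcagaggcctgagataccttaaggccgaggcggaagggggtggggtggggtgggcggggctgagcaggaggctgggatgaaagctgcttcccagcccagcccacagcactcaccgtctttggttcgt
Hmgcs1: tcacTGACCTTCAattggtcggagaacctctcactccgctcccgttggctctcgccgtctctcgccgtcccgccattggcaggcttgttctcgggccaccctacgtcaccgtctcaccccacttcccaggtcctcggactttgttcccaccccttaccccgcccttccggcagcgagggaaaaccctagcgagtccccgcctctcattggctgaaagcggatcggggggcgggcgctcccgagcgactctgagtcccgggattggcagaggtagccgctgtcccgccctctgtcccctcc

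Retreg1, a receptor that feeds endoplasmic reticulum into autophagy, read 10.29, 8.78 and 9.91 on null arrays and 6.65, 6.30 and 5.98 on wild-type arrays. It rose 10.2-fold, by 3.35 ± 0.35 (SE, adjusted p = 0.00224), and null replicate 2 was the lowest null array. Hmgcs1, which makes hydroxymethylglutaryl-CoA for sterols, read 9.53, 11.03 and 9.60 on null arrays and 11.70, 11.89 and 11.88 on wild-type arrays. It fell by 1.77 (SE 0.33, adjusted p = 0.0179), with null replicate 2 close to the wild-type arrays. Alas2, the heme synthesis enzyme of red cells, read 11.21, 10.89 and 11.13 on null arrays and 10.67, 10.57 and 10.46 on wild-type arrays, a rise of 0.51 ± 0.13 (SE, adjusted p = 0.0452).

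Plk3, Gadd45b and Upp2 were among the 15 named rises. Plk3, a stress-inducible polo-like kinase, read 8.87, 6.14 and 8.58 on null arrays and 2.98, 2.69 and 2.93 on wild-type arrays. All null arrays lay above all wild-type arrays, with null replicate 2 the lowest of them. The difference was 5.0 ± 0.60 (SE, adjusted p = 0.00404), but the wild-type mean was below the filter level, so Plk3 passed the filter only through its null arrays and had to differ. It was tested in 3 of the 6 fits that each left out 1 array. With every signal under 32 set to 32 its difference was 2.86, smaller than those of Gadd45b (3.57), Upp2, Got1 (3.43), Retreg1 (3.35), Ddit4 (3.26), Rab30 (3.13) and Pim3 (3.12). A wild-type mean below the filter level was also found for Gadd45b, an inducer of growth arrest and DNA repair. The probe set thus passed the filter only through its null arrays. It read 9.36, 7.37 and 8.98 on null arrays and 3.97, 3.94 and 3.83 on wild-type arrays (4.66 ± 0.43, SE, adjusted p = 0.00133). Gadd45b had 2 other tested probe sets. A brighter one rose by 2.13 ± 0.26 (SE), and the other was higher on null arrays by its mean but was not called. Upp2, the liver uridine phosphorylase, rose by 3.98 ± 0.48 (SE, adjusted p = 0.00404) at its brighter probe set. At the other, whose wild-type mean lay under the filter level, it read 9.29, 7.75 and 9.76 on null arrays and 6.28, 4.76 and 3.0 on wild-type arrays (4.25 ± 0.74, SE, adjusted p = 0.0133). That call was lost without null replicate 1 (adjusted p = 0.0551) or 3 (adjusted p = 0.0697) and with all 30 arrays in the fit (adjusted p = 0.204), and the difference was 1.80 with the Gapdh covariate.

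Other genes among the 15 largest rises followed, with 5.54-fold the smallest of them. Ddit4, an inhibitor of the growth kinase complex mTORC1, read 10.91, 8.0 and 9.74 on null arrays and 6.31, 6.13 and 6.44 on wild-type arrays, a 9.56-fold rise. Trp53inp1, a stress gene that acts in autophagy, rose 6.09-fold, and C9orf72, which acts in autophagy and in lysosomes, rose 5.95-fold. Null replicate 2 stood lowest of the null arrays for each of these 3 genes. Rab30, a small GTPase of the Golgi, rose 8.75-fold and the kinase Pim3 8.71-fold. Wnt4, a secreted ligand, rose 5.54-fold to 8.40, 7.41 and 8.40 on null arrays, against 5.92, 5.35 and 5.53 on wild-type arrays. The clock repressor Cry2 rose by 2.71 ± 0.43 (SE, adjusted p = 0.00966), with a wild-type mean below the filter level, and by 1.77 with the floor at 32.

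Of 27 tested genes known to respond to glucocorticoids 17 rose and 0 fell (limma, 0 lower also at an unadjusted p under 0.05), a share of 63.0% against 3.3% of all tested genes, and the median difference was 1.61. Tat, the tyrosine aminotransferase that glucocorticoids and glucagon switch on at birth, read 12.14, 10.97 and 12.14 on null arrays and 9.75, 8.81 and 8.96 on wild-type arrays. It rose 5.97-fold (adjusted p = 0.00435) without overlap. Cdkn1a, an inhibitor of the cell cycle, rose by 2.38 ± 0.31 (SE), the transcription factor Cebpd by 1.82 ± 0.27 (SE) and Hif3a by 1.70 ± 0.25 (SE).

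Not every classical member of this list passed. Fkbp5, a chaperone that dampens the glucocorticoid receptor, read 9.47, 8.91 and 9.48 on null arrays and 9.02, 8.75 and 8.96 on wild-type arrays, which overlapped (0.38, adjusted p = 0.257). Tsc22d3, the anti-inflammatory mediator GILZ, differed by 1.61 ± 0.42 (SE, adjusted p = 0.0515) at its brightest probe set, and 1 of its other 2 tested probe sets was called higher. The count of rises in this list was 8 without wild-type replicate 2 and 21 without null replicate 2. With the Gapdh difference as a covariate 0 were called here and in every other list, as over all probe sets.

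The list of fasting and low insulin shares Pdk4, Ddit4 and other genes with the one before. Of its 30 tested members 15 rose and 1 fell, with a median difference of 0.87. Pdk4, the kinase that shuts off pyruvate dehydrogenase, read 9.50, 9.15 and 8.94 on null arrays and 7.27, 6.68 and 6.76 on wild-type arrays. It rose 4.90-fold, by 2.29 ± 0.21 (SE, adjusted p = 0.00133), and here null replicate 2 did not stand apart. Txnip, which limits glucose uptake, rose 4.11-fold (adjusted p = 0.00119), and Lpin1, a phosphatidate phosphatase and partner of PGC-1α, rose 5.57-fold at its brightest probe set. The member that fell was Ppp1r3c, which anchors a phosphatase to glycogen, at 7.13, 6.62 and 5.58 on null arrays and 8.97, 9.28 and 9.21 on wild-type arrays (-2.71 ± 0.33, SE).

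Other genes tied to fasting were not called. Igfbp1, an insulin-repressed binding protein, read 12.90, 12.90 and 13.13 on null arrays and 12.71, 12.73 and 12.69 on wild-type arrays, close to the highest value in the file, 13.45 (0.27, adjusted p = 0.129). Fgf21, a hormone that the fed newborn liver and the fasted adult liver make, read 3.03, 3.45 and 4.96 on null arrays and 6.36, 6.32 and 5.58 on wild-type arrays. Its values did not overlap but its mean lay under the filter, so it was not tested. Cyp4a10, a fatty acid hydroxylase, has no probe set with 1 gene symbol in the annotation used and was not analysed here. The count of rises in the fasting list was 6 without wild-type replicate 2 and 17 without null replicate 2.

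Transcripts of milk protein genes, which are active in the mammary gland, were also read on the stomach arrays of the series. They were lower in null than in wild-type stomach and unequal among null arrays: the casein gene Csn1s2a read 0.82, 8.30 and 1.49 on null replicates 1, 2 and 3, against 10.23, 10.71 and 11.13 on wild-type replicates. Csn2 read 5.21, 8.06 and 5.73 on null and 9.94, 10.03 and 10.42 on wild-type stomach arrays, and the whey gene Wap 5.38, 6.88 and 5.26 on null and 9.20, 10.06 and 10.24 on wild-type arrays. Null replicate 2 was thus the highest null stomach array for these genes and the null liver array nearest to wild type. The labels do not say that equal numbers are the same animal, and the part of milk intake in the liver result was not tested.

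**Figure D2:**
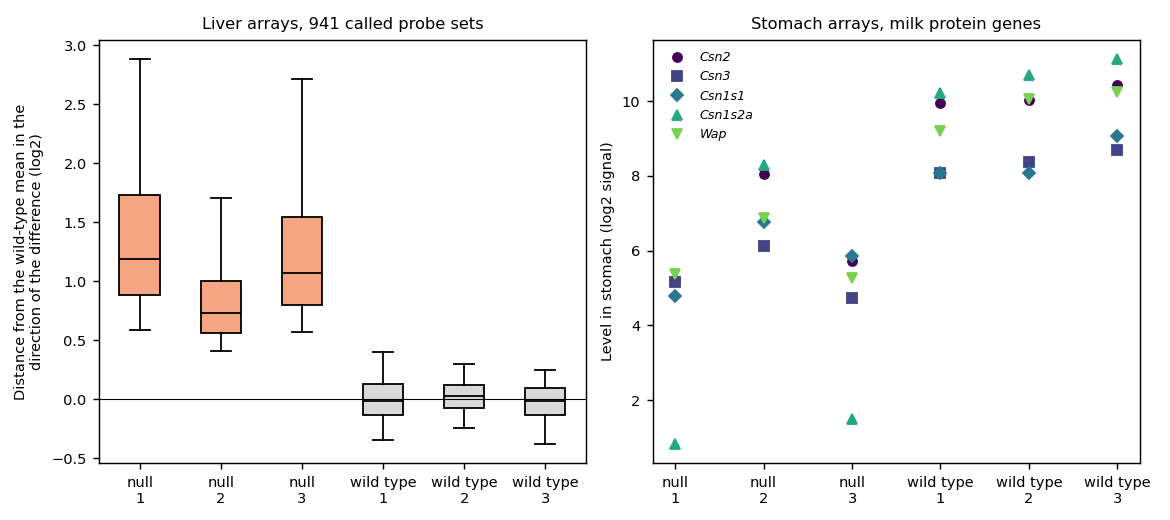
Left, distance of each liver array from the wild-type mean in the direction of the group difference (log2) over the 941 called probe sets, as boxes (line, median; box, middle quartiles; whiskers, percentiles 5 to 95). Right, level of 5 milk protein genes on each stomach array (log2 signal); null replicate 2 has the smallest distance in liver, a median of 0.73, and the highest null levels of all 5 genes in stomach.

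In the list for gluconeogenesis and glucose release 5 of 20 tested genes rose and 2 fell, with a median difference of -0.02. Got1, the cytosolic aspartate aminotransferase, read 12.25, 10.73 and 12.02 on null arrays and 8.68, 7.99 and 8.03 on wild-type arrays. This 10.8-fold rise (3.43 ± 0.36, SE, adjusted p = 0.00224) was the largest in the list, and null replicate 2 was the lowest null array. Pck1, the cytosolic phosphoenolpyruvate carboxykinase, read 10.98, 10.91 and 11.06 on null arrays and 10.35, 10.05 and 10.35 on wild-type arrays, a rise of 0.73 ± 0.13 (SE, adjusted p = 0.0137).

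G6pc, the glucose-6-phosphatase of the last step of glucose release, read 12.14, 11.82 and 12.27 on null arrays and 11.03, 10.52 and 11.43 on wild-type arrays and rose 2.12-fold (adjusted p = 0.0201). The mitochondrial isoform Pck2 rose 2.31-fold. The other fall besides Ppp1r3c, named after its values were seen, was Slc2a2, the liver glucose transporter (-0.95, adjusted p = 0.04). The rises numbered 2 without null replicate 3 and 7 without null replicate 2.

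Amino acid breakdown and the urea cycle had 9 rises and 3 falls among 42 tested genes, with a median difference of 0.15. Aass, the first enzyme of lysine breakdown, read 10.18, 9.36 and 10.39 on null arrays and 8.85, 7.93 and 7.66 on wild-type arrays (1.83, adjusted p = 0.0154). The ornithine carrier Slc25a15 rose by 1.22 and Mat1a, which makes S-adenosylmethionine, by 1.06. Tdo2, which opens the tryptophan ring, rose by 2.04 ± 0.53 (SE, adjusted p = 0.049), but its groups overlapped, since null replicate 2 at 6.71 lay below wild-type replicate 1 at 6.83. Glud1, glutamate dehydrogenase, fell by 1.10 (adjusted p = 0.00791). The rises numbered 1 without wild-type replicate 2 and 10 without null replicate 2.

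Immediate early genes, the first to answer a stimulus, had 10 rises and 0 falls among 27 tested (limma, 1 lower at an unadjusted p under 0.05), with a median of 0.73. Zfp36, an RNA-binding protein that shortens the life of cytokine messages, read 9.26, 8.47 and 8.83 on null arrays and 6.74, 6.82 and 7.11 on wild-type arrays (1.96 ± 0.21, SE, adjusted p = 0.00268). Fos rose by 1.92, Klf6 by 1.06 and the antiproliferative Btg1 by 0.91. Clock genes had 3 rises among 14 tested, Cry2, Per1 (2.08, or 1.73 with the floor at 32) and Nr1d2 (1.26). The wild-type mean of Per1 lay under the filter level. No source used here gives the time of day of collection. The immediate early count was 2 without wild-type replicate 2 and 14 without null replicate 2, and the clock count was 0 without null replicate 1.

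**Figure D3:**
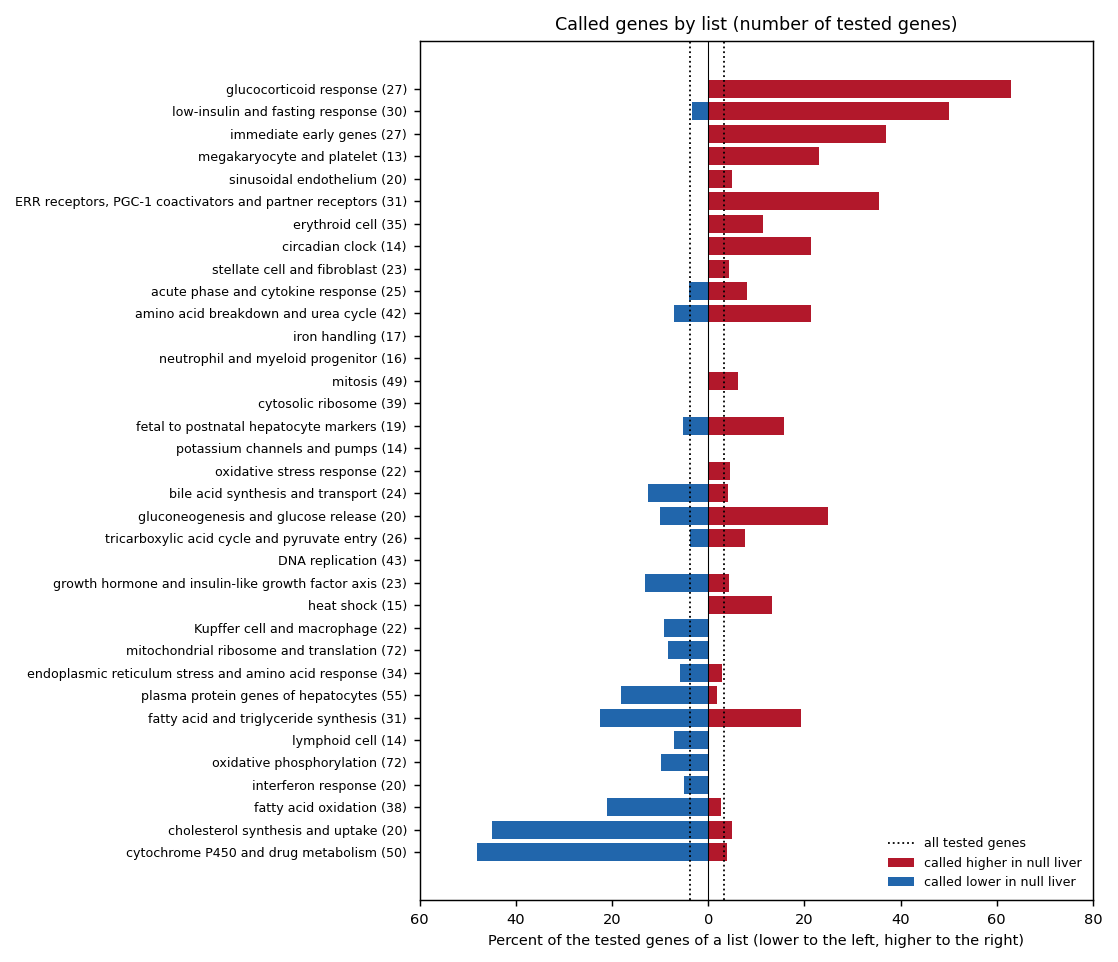
Percent of the tested genes of each list that were called higher (red, to the right) or lower (blue, to the left) in null liver, for the 35 lists with at least 12 tested genes, ordered by their median difference. Dotted lines mark the shares over all tested genes, 3.3% higher and 3.76% lower. The glucocorticoid list reaches 63.0% to the right and the cytochrome P450 list 48.0% to the left. The lists were chosen with earlier results of these data known.

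**Figure D4:**
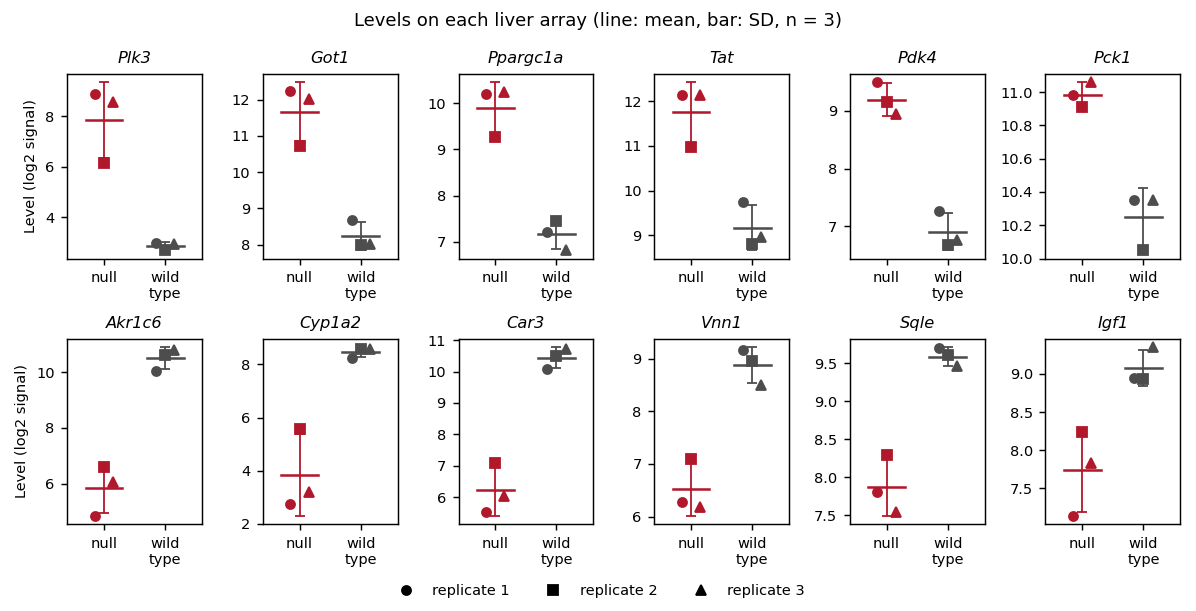
Level of 12 genes on each liver array (log2 signal, each panel with its own axis), null left and wild type right, with symbols for replicates 1 to 3, lines for means and bars for SD (n = 3). The upper 6 genes are higher on every null array and the lower 6 lower on every null array than on any wild-type array.

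Cytochrome P450 and drug metabolism genes fell in the largest number. Of 50 tested genes 24 fell and 2 rose, with a median difference of -0.67. Their share of falls, 48.0%, compares with 3.76% of all tested genes. Akr1c6, an aldo-keto reductase of steroids, read 4.87, 6.62 and 6.06 on null arrays and 10.05, 10.62 and 10.80 on wild-type arrays. No null array came near the wild-type arrays, and the fall was 24.9-fold (-4.64 ± 0.39, SE, adjusted p = 0.00114). Cyp1a2, the main caffeine-clearing P450 of liver, read 2.73, 5.58 and 3.19 on null arrays and 8.26, 8.57 and 8.57 on wild-type arrays (-4.63 ± 0.60, SE, adjusted p = 0.00435). The null arrays averaged less than the level of the filter, so Cyp1a2 passed only through its wild-type arrays. With the floor at 32 its difference was -3.27.

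The family members followed. Akr1c20 fell 9.71-fold and Akr1c14 8.02-fold, though probe sets of such close paralogs can share signal. Cyp4a12a, a fatty acid hydroxylase, read 4.77, 3.36 and 3.43 on null arrays and 6.83, 6.68 and 7.32 on wild-type arrays, and passed the filter only through the wild-type arrays. It was tested in 3 of the 6 fits that left out 1 array, and its difference was -3.09 (adjusted p = 0.00404) and -1.94 with the floor at 32. Gsta3, a glutathione transferase, fell 3.87-fold. Both rises, Cyp3a13 (1.36) and Cyp4f15 (1.03), were named after their values were seen. The count of falls was 11 without wild-type replicate 2, and no single array left out raised it above 24.

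Outside that list, large falls included those of Car3, Aox3 and G0s2. Car3, a carbonic anhydrase abundant in liver, muscle and fat, read 5.52, 7.09 and 6.05 on null arrays and 10.07, 10.50 and 10.73 on wild-type arrays, an 18.5-fold fall (adjusted p = 0.00114). The adipocyte genes Adipoq and Ucp1 lay under the filter. Inhba, a subunit of activin, read 3.33, 3.40 and 3.77 on null arrays and 6.90, 6.99 and 7.40 on wild-type arrays, with all null arrays under the level of the filter, so that it passed only through the wild-type arrays and was tested in 3 of the 6 fits that left out 1 array. Its difference was -3.60 (adjusted p = 0.00114) and -2.10 with the floor at 32. Aox3, an aldehyde oxidase, read 3.64, 6.98 and 5.37 on null arrays and 8.60, 8.43 and 8.28 on wild-type arrays, and the null arrays were spread over more than 3 log2 units. G0s2, an inhibitor of the lipase that opens fat droplets, read 6.51, 9.05 and 6.13 on null arrays and 9.86, 10.84 and 10.04 on wild-type arrays (adjusted p = 0.0257), with null replicate 2 near wild type.

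The remaining named falls were those of Timd2, a ferritin receptor (-2.70), Pcolce2, which promotes collagen processing, Inmt, which methylates indole amines, Dhrs1, a short-chain dehydrogenase, and Pbld2. The null means of Inmt, Dhrs1 and Pbld2 lay under the filter level, and with the floor at 32 their differences were -2.28, -2.41 and -1.78. Pcolce2 read 4.57, 7.14 and 4.63 on null arrays and 7.67, 8.0 and 8.97 on wild-type arrays, again with null replicate 2 nearest to wild type. It was not called in 5 of the 6 fits that each left out 1 array.

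Of 20 tested genes of cholesterol synthesis and uptake 9 fell and 1 rose, with a median difference of -0.60. Sqle, squalene epoxidase, read 7.80, 8.29 and 7.54 on null arrays and 9.70, 9.61 and 9.46 on wild-type arrays, a 3.28-fold fall (-1.71 ± 0.20, SE, adjusted p = 0.00335). Idi1, the isopentenyl diphosphate isomerase, also fell 3.28-fold, Msmo1, a sterol oxidase, 3.60-fold and Fdft1, squalene synthase, 2.49-fold. The rise, named after its value was seen, was Insig2 (1.56), which holds back activation of these genes. The falls numbered 2 without wild-type replicate 2 and 11 without null replicate 2.

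Fat metabolism was split. Of 31 tested genes of fatty acid and triglyceride synthesis 6 rose and 7 fell. Fasn, fatty acid synthase, read 5.72, 5.23 and 5.46 on null arrays and 6.71, 6.63 and 7.15 on wild-type arrays, a 2.57-fold fall. Lpin2, a phosphatidate phosphatase, read 10.34 to 11.13 on null arrays and 9.21 to 9.32 on wild-type arrays (2.93-fold, adjusted p = 0.00404), and Gpam, the first acyltransferase, rose 2.52-fold. The falls numbered 0 without wild-type replicate 3, 3 with equal array medians and 11 without null replicate 2.

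Fatty acid oxidation, which ERR and PGC-1 are known to raise, had 8 falls and 1 rise among 38 tested genes, with a median difference of -0.46. Vnn1, a pantetheinase and target of the fatty acid receptor PPARα, read 6.28, 7.10 and 6.19 on null arrays and 9.16, 8.96 and 8.50 on wild-type arrays, a 5.10-fold fall (adjusted p = 0.00309). The thiolase Hadhb read 10.45, 10.98 and 10.77 on null arrays and 11.76, 11.70 and 11.56 on wild-type arrays, a fall of 0.94 (SE 0.15). Acadl, the long-chain dehydrogenase, fell 1.84-fold, Acaa2 2.05-fold and the fatty acid carrier Fabp1 3.33-fold. Cpt1a, the gate of mitochondrial entry, read 9.98, 10.57 and 9.83 on null arrays and 10.61, 10.34 and 10.03 on wild-type arrays, which overlapped (-0.20, adjusted p = 0.637).

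Ketone body synthesis had 4 tested genes, of which Bdh1, hydroxybutyrate dehydrogenase, fell by 1.76 (adjusted p = 0.00728). Acat1 differed by -0.93 (adjusted p = 0.0699) at its brightest probe set, and 1 of its other 2 tested probe sets was called lower. The rise in the oxidation list was Pex11a (0.91), a gene of peroxisome division that was named after its value was seen. The falls of the oxidation list numbered 3 without wild-type replicate 1 and 18 without null replicate 2.

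Genes of the respiratory chain fell in small number and by small amounts. Of 72 tested genes of oxidative phosphorylation 7 fell and 0 rose (limma, 2 higher at an unadjusted p under 0.05), with a median difference of -0.24, and the share of falls was 9.72% against 3.76% of all tested genes. Ndufa13, a complex I subunit, read 10.23, 10.59 and 10.46 on null arrays and 11.61, 11.24 and 11.21 on wild-type arrays (-0.93 ± 0.15, SE, adjusted p = 0.00988). Ndufv3 fell by 0.90, Ndufb2 by 0.86 and Uqcrq of complex III by 0.71. The mitochondrial ribosome list had 6 falls and 0 rises among 72 (3 higher at an unadjusted p under 0.05), led by Mrpl49 (-1.01), with a median of -0.18.

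Genes of the citric acid cycle had a median near 0. Of 26 tested genes of the cycle and of pyruvate entry 2 rose, Pdk4 and fumarase Fh1, and 1 fell, the pyruvate carrier subunit Mpc1 (-1.03, adjusted p = 0.0082), with a median of -0.04. Fh1 read 11.31, 10.92 and 10.92 on null arrays and 10.19, 9.81 and 9.76 on wild-type arrays. The respiratory falls numbered 1 without wild-type replicate 2 and 17 without null replicate 2, and the mitochondrial ribosome falls 0 without wild-type replicate 1 and 11 without null replicate 2.

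Genes of secreted hepatocyte proteins fell more often than they rose. Of 55 tested plasma protein genes 10 fell and 1 rose, with a median of -0.20, and the summed linear signal of the list was 155900 to 188100 on null arrays and 181000 to 200200 on wild-type arrays, which overlapped. Alb read 12.83, 13.07 and 13.21 on null arrays and 13.02, 12.90 and 12.89 on wild-type arrays (0.10, adjusted p = 0.647), and Afp, its fetal relative, read 12.86, 13.07 and 13.05 on null arrays and 13.03, 13.02 and 12.93 on wild-type arrays (adjusted p = 1). Both lay near the highest values of the file. The complement gene C8a fell 3.25-fold and Serpind1, heparin cofactor, 1.99-fold, while Apoa5, an apolipoprotein that lowers triglyceride, rose 1.99-fold (adjusted p = 0.00634). Apoa4, a lipid-induced apolipoprotein, differed by -0.55 (adjusted p = 0.19). The falls of this list numbered 0 without wild-type replicate 3 and 16 without null replicate 2.

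Igf1, the liver's main growth factor, and 2 genes tied to it fell. Igf1 read 7.14, 8.24 and 7.83 on null arrays and 8.95, 8.93 and 9.35 on wild-type arrays, a 2.53-fold fall (-1.34 ± 0.26, SE, adjusted p = 0.0194). Its serum partner Igfals, with a null mean under the filter level, fell by 2.31 (-1.64 with the floor at 32). The growth hormone receptor Ghr fell by 1.04, while the feedback inhibitor Socs3 rose by 0.98. These 4 were the calls among 23 tested genes, and the count of falls was 0 without wild-type replicate 1.

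Bile acid genes had 3 falls and 1 rise among 24. The bile salt pump Abcb11 fell by 1.16 (adjusted p = 0.0421), Scp2, a sterol carrier, by 0.99 and Hsd3b7 by 0.83, and the rise was Nr5a2. These falls numbered 1 without wild-type replicate 1 and 7 without null replicate 2. Cyp7a1, the rate-limiting enzyme of bile acid synthesis, read 10.56, 9.14 and 9.39 on null arrays and 8.31, 8.44 and 8.82 on wild-type arrays, which did not overlap but missed the threshold (1.17, adjusted p = 0.0616). Hamp, the iron hormone hepcidin, read 11.42, 9.36 and 10.18 on null arrays and 10.05, 9.58 and 10.23 on wild-type arrays (0.37, adjusted p = 0.665). None of 17 tested iron genes was called by limma, with 4 at an unadjusted p under 0.05, beside 3093 of all 13577 tested probe sets. At the shares over all tested genes, 3.3% higher and 3.76% lower, a list of this size would hold few calls.

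The other stress lists are read against 3.3% of all tested genes higher and 3.76% lower. The endoplasmic reticulum list had 1 rise (2.94%), Sesn2 (1.34), and 2 falls (5.88%), Xbp1 (-0.59) and Pdia4 (-1.20), among 34. Its falls numbered 0 with equal array medians, 0 with the replicate number as a block, 0 without wild-type replicate 1 and 9 without null replicate 2. The oxidative stress list had 1 rise (4.55%) among 22, the plasma peroxidase Gpx3 (2.14, adjusted p = 0.0156), and the heat shock list had 2 (13.3%) among 15, Hspb8 (1.57) and Hspa8 (0.52). Acute phase genes had 2 rises (8.0%), Serpina3n (0.82) and Socs3, and 1 fall (4.0%), Saa4 (-1.77), among 25. Interferon genes had 1 fall (5.0%), Stat2 (-1.16), among 20, and the null mean of Stat2 lay under the filter level. In the list of fetal and postnatal hepatocyte markers 3 of 19 rose, the imprinted Peg3 (1.19), Tat and Tdo2, and 1 fell, Cdkn1c (-1.02).

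Potassium channels and pumps, which the title of the series concerns in other organs, gave no call in liver at the brightest probe set of a gene. Of 34 measured genes 14 passed the filter and 0 were called by limma, with 4 at an unadjusted p under 0.05. So short a list would also hold few calls at the shares over all tested genes, 3.3% higher and 3.76% lower. The nearest were Slc12a7 (-0.66, adjusted p = 0.0967) and Atp1b1 (0.71, adjusted p = 0.0996). Of the other 4 tested probe sets of Atp1b1, 3 were called higher.

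Few genes of proliferation were called, and over all tested genes 3.3% were higher and 3.76% lower. Of 43 tested DNA replication genes 0 were called by limma, with 3 at an unadjusted p under 0.05. Of 49 tested mitosis genes 3 rose (6.12%), Cdc25b (0.79), Nusap1 (0.61) and Ncapd2 (0.59). Mki67, a marker of dividing cells, read 11.20, 10.90 and 11.08 on null arrays and 10.18, 10.79 and 10.64 on wild-type arrays (0.52, adjusted p = 0.0992). Of 39 tested cytosolic ribosome genes 0 were called, with 4 at an unadjusted p under 0.05 and all 4 of them higher.

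Summed markers of some other cells in the newborn liver differed between the groups by small amounts. Fewer cells of a type and less RNA per cell cannot be told apart in such samples. Groups without overlap were also found for 27.9% of all tested probe sets. The summed linear signal of the erythroid list was 35390 to 36900 on null arrays and 28330 to 30880 on wild-type arrays, and 4 of its 35 tested genes rose, Ermap (0.80), Slc25a37 (0.65), Tmcc2 (0.55) and Alas2. These rises numbered 0 without null replicate 3, 1 with equal array medians and 1 with the replicate number as a block. The probe set of the globin gene Hba-a1 read 4.45, 4.80 and 5.70 on null arrays and 5.19, 6.30 and 5.35 on wild-type arrays, which overlapped near the level of the filter. Values so near background do not show the level of globin transcripts or whether it differed. Sums were also higher without overlap for megakaryocytes and platelets, at 7320 to 8854 on null arrays and 5933 to 6765 on wild-type arrays, where Vwf (2.08), Clec1b (0.66) and Thbs1 (0.70) rose among 13 tested genes but not without wild-type replicate 1. Sinusoidal endothelium summed to 4930 to 6163 on null arrays and 4495 to 4913 on wild-type arrays, with 1 rise, the hyaluronan receptor Lyve1 (1.49), among 20.

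Sums were lower without overlap for 3 other cell types, by narrow margins for macrophages and lymphoid cells. Kupffer cells and macrophages summed to 12140 to 13160 on null arrays and 13180 to 15910 on wild-type arrays, with falls of Lyz1 (-0.59) and Vsig4 (-0.82) among 22 tested genes. Lymphoid genes summed to 1705 to 2014 on null arrays and 2016 to 2573 on wild-type arrays, with 1 fall, Ms4a1 (-0.73), among 14. Bile duct genes summed to 3887 to 4018 on null arrays and 4168 to 4369 on wild-type arrays, with Anxa4 (-0.98) lower and Tspan8 (0.69) higher among 8. None of the calls in these 3 lists remained without wild-type replicate 1, and Vsig4 was not called in any of the 6 fits that each left out 1 array. The other 2 tested probe sets of Tspan8 differed by -0.05 and -0.03 and were not called. The sums of neutrophil, mast cell, stellate cell, adipocyte, exocrine pancreas, gut, muscle and adrenal or kidney genes overlapped between groups. Of these lists, Kit (0.84, mast cell), Col1a1 (0.96, stellate cell), Krt20 (-1.42, gut) and Miox (-1.07, adrenal or kidney) were called, and the adipocyte list held Car3 and Ppargc1a. The part of these cells in the results above was not tested.

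The liver difference was set against that of the other tissues in 1 fit of all 30 arrays. The contrast, the liver difference minus the mean of the differences in brain, kidney, stomach and salivary tissue, was called for 1141 of 13577 probe sets (8.4%), 625 above and 516 below. Of the 941 probe sets called in liver, 510 (54.2%) also differed from the other tissues in the same direction, and the 2 tests share the liver arrays. Rab30 was 3.13 higher in null liver, and its liver difference stood 4.24 ± 0.84 (SE, adjusted p = 0.00221) above the mean of the other tissues, where its difference was -0.34 in salivary tissue, -0.65 in brain, -1.70 in stomach and -1.73 in kidney. Got1 stood 3.94 ± 0.28 above them (SE), and the contrast for Cyp1a2 was -5.12 ± 0.74 (SE).

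The lists differed in how many of their genes were called in this contrast, a difference that was not itself tested. Over all 13577 tested probe sets 625 lay above the other tissues and 516 below. Of 50 tested genes of the cytochrome P450 list 20 lay below the other tissues, and 7 of 31 genes of the ERR and PGC-1 list lay above them. In the glucocorticoid list 4 of 27 lay above and 2 below. The contrast was 0.66 for Pdk4 (adjusted p = 0.503), -0.44 for Cebpd (adjusted p = 0.635) and -0.02 for Pck1 (adjusted p = 0.996), which does not show that these differences were equal. For the mitosis list 22 of 49 genes and for the DNA replication list 13 of 43 lay above the other tissues, although 3 and 0 of them were called in liver itself. A fall elsewhere counts in this contrast like a rise in liver. The difference in stomach was -0.50 for Nusap1, -0.93 for Ncapd2 and -0.54 for Cdc25b. In salivary tissue it was -0.79, -0.63 and 0.01 in the same order, and in brain and kidney it ran from -0.31 to 0.28.

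**Figure D5:**
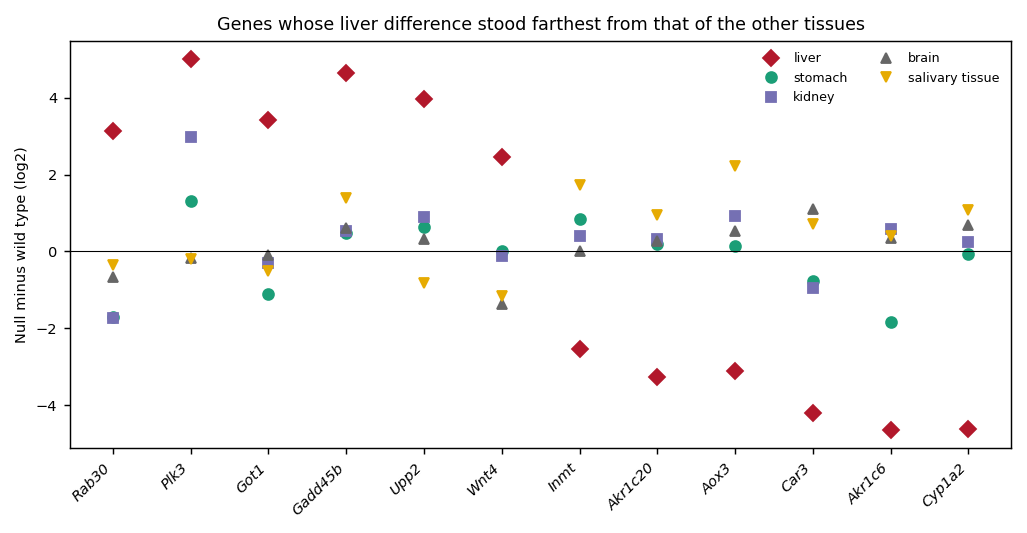
Difference between null and wild type (log2) in liver (diamonds) and in the other 4 tissues for the 6 genes whose liver difference stood farthest above and the 6 whose liver difference stood farthest below the mean of the other tissues. The liver points lie outside the range of the other tissues for all 12 genes, from 4.24 above their mean (Rab30) to 5.12 below it (Cyp1a2).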

How the data were processed

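Total RNA of newborn liver was read on 6 Affymetrix MOE430A arrays. The deposited table holds log2 values that the authors made with MAS5, per the submitters' processing notes, with no version named; on the linear scale the mean of each array after trimming 2% of the probe sets at each end is 150.0, so the arrays had been scaled to one level. All 30 columns matched a sample and 0 were left over. Array signals have no read depth, and the number of arrays limits the precision.

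Of 22690 probe sets, 64 controls were left out. Gene symbols came from the platform annotation: 20380 probe sets had 1 symbol, 691 several and 1555 none. Probe sets were fitted in R 4.3.3 by limma 3.58.1, using lmFit and then eBayes with its trend option, on the 6 liver arrays by genotype, for those whose mean reached the 40th percentile, with Benjamini-Hochberg adjustment and a threshold of 0.05. A second fit of all 30 arrays in 10 groups gave the liver difference minus the mean of the other 4. Single values were compared by exact permutation. The fits were tested on simulated data. Replicate numbers did not pair the genotypes: correlations of same-numbered deviations were -0.12, 0.10 and -0.08.

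In each of 44 gene lists the probe set with the highest liver mean stood for a gene. The text names Esrrg, the 15 largest rises and falls without overlap, up to 5 called members of a list by adjusted p, or the 2 of smallest p where under 2 were called, the 6 largest contrasts each way, and a fixed set of liver genes; others are said to be named after their values were seen. The members and the lists were chosen with earlier results of these data known. Alternatives changed the scale, filter, scaling between arrays, spread estimate, arrays fitted, covariates, replicate block and threshold, and left out each array.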

Additional observations from a re-analysis of the deposited data

Results flagged for a closer look

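The difference between null and wild type in liver departed from the mean of that difference in the other 4 tissues for 12 named genes, by the limma contrast over all 30 arrays with Benjamini-Hochberg adjustment. The contrast was 4.24 for Rab30 (adjusted p = 0.00221), whose difference in the other tissues ran from -1.73 in kidney to -0.34 in salivary tissue. It was 4.01 for Plk3 (adjusted p = 0.000685), whose difference was 2.97 in kidney and 1.32 in stomach. Got1 stood at 3.94 (adjusted p = 1.2e-09), the smallest adjusted p of the 12. Gadd45b stood at 3.91, Upp2 at 3.72 and Wnt4 at 3.13, the last with differences of -1.36 in brain and -1.16 in salivary tissue. The other probe set of Upp2, whose difference was 3.83 in kidney, had a contrast of 2.61 ± 2.40 (SE, adjusted p = 0.574), and the brighter probe set of Gadd45b one of 1.85 (adjusted p = 0.00153).

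Among genes with a fall in liver, the contrast was -5.12 for Cyp1a2 (adjusted p = 8.82e-05), -4.50 for Akr1c6, -4.23 for Car3 and -4.06 for Aox3, whose difference was 2.21 in salivary tissue. It was -3.71 for Akr1c20 and -3.28 for Inmt (adjusted p = 9.23e-07). The filter used the liver level alone, so differences in the other tissues can rest on signals near background. With every signal under 32 set to 32, the contrast was 2.77 for Plk3, against a liver difference of 2.86, and -3.28 for Cyp1a2. All 12 kept their direction and their call in each of the 14 alternatives of this contrast. They had been picked as the largest called contrasts, and every alternative reused the probe sets of the main filter. Plk3, this probe set of Gadd45b, Cyp1a2 and Inmt passed that filter only through their higher liver group. The alternatives therefore describe these genes and do not test them anew. With 3 arrays per group, single arrays were not tested as outliers.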

How the results depend on the processing

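The direction of the 941 calls did not change in any alternative in which they were tested, but their number did. Where the groups of a call do not overlap, leaving out 1 array could not turn its direction. It was 527 without the filter, 1988 with all 30 arrays in the fit, 534 without the mean-variance trend, 1533 with array weights, 1588 at an adjusted p under 0.1 and 167 at 0.01. With the Gapdh difference as a covariate it was 0 (0 higher and 0 lower, 1846 at an unadjusted p under 0.05). Rises and falls in the same order numbered 281 and 246, 1090 and 898, 284 and 250, 767 and 766, 822 and 766, and 84 and 83. Leaving out 1 array gave 196 to 1796 calls, 104 to 879 rises and 92 to 917 falls; without null replicate 2 the calls included 907 of the main ones. Leaving out 1 liver array gave 584 (without null replicate 1) to 1536 probe sets for the contrast with other tissues. With the replicate block 843 were called (427 higher and 416 lower), and 748 of them were among the 941. The other alternatives gave 711 to 1027. Of 130 named calls 51 held in every fit without 1 array in which they were tested, and 40 were lost in 5 or 6 fits. Signs turned only for genes that were not called: Esrrg was 0.0195 with array weights and -0.17 to 0.12 without 1 array, Alb -0.0805 with the Gapdh covariate, and Hamp -0.18 to 0.85 without 1 array. Scalings moved the median of all tested probe sets by no more than 0.03. Changes of genes near the filter level are bounded by background, and those near 13.45 by the top of the range. The causes were not tested.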
